A study of Drosophila melanogaster with 4 samples.

Results

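The amylase, maltase and trehalase genes of Drosophila melanogaster encode the enzymes that release glucose from starch, glycogen, maltose and trehalose. Members were chosen by gene symbol as the probe sets that match exactly 1 of 10 named genes: Amy-p, Amy-d, Amyrel, Mal-A1, Mal-A2, Mal-A3, Mal-A4, Mal-B1, tobi and Treh. Of these genes, 9 had such a probe set, 1 probe set each, out of 10844 genes named by the 13966 probe sets that are not controls. Amy-p had none in the annotation used and is not analysed here.

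RNA of whole adults was measured on 4 one-colour Affymetrix arrays, 1 baseline sample per array, so that the data hold 1 group with n = 4. All samples share the same feeding history. Yeast was withdrawn from their standard food early in the third larval instar, and it was still absent when the flies were killed, 4 days after emergence and immediately before a refeeding time course. The samples, here called libraries 1, 2, 3 and 4, are ordered in the labels as hours -4, -3, -2 and -1, an order assigned for a change-point analysis. The sources used here name no strain, genotype or sex and no number of flies pooled per sample, nor do they state that the samples came from separate cultures, so p-values measure only the spread between these 4 samples. Values are intensities on a linear scale, normalized between arrays by the authors.

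In the fly, alpha-amylase cuts starch and glycogen in the gut lumen into maltose and short glucose chains. Maltases, which are alpha-glucosidases, then split these and sucrose into single sugars. Trehalase acts on trehalose, the main sugar of insect blood, and yields glucose for use inside tissues. Secretion of the digestive enzymes depends on the diet, and sugar in the food is known to repress amylase and maltase transcripts. In whole animals, fewer cells of a type and less RNA per cell cannot be told apart.

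Library 3 held less Amy-d and Mal-A1 RNA than the other libraries, while none of the other 5 members that could be tested was called in any library. Amy-d, the distal of the duplicated pair of alpha-amylase genes, had an intensity of 244 in library 3, against 446, 389 and 361 in libraries 1, 2 and 4. Mal-A1, a maltase gene, had 264 in library 3, against 406, 387 and 391 in libraries 1, 2 and 4. For both genes library 3 lay below every other library, at 61.2% of their mean for Amy-d and 66.7% for Mal-A1.

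**Figure D1:**
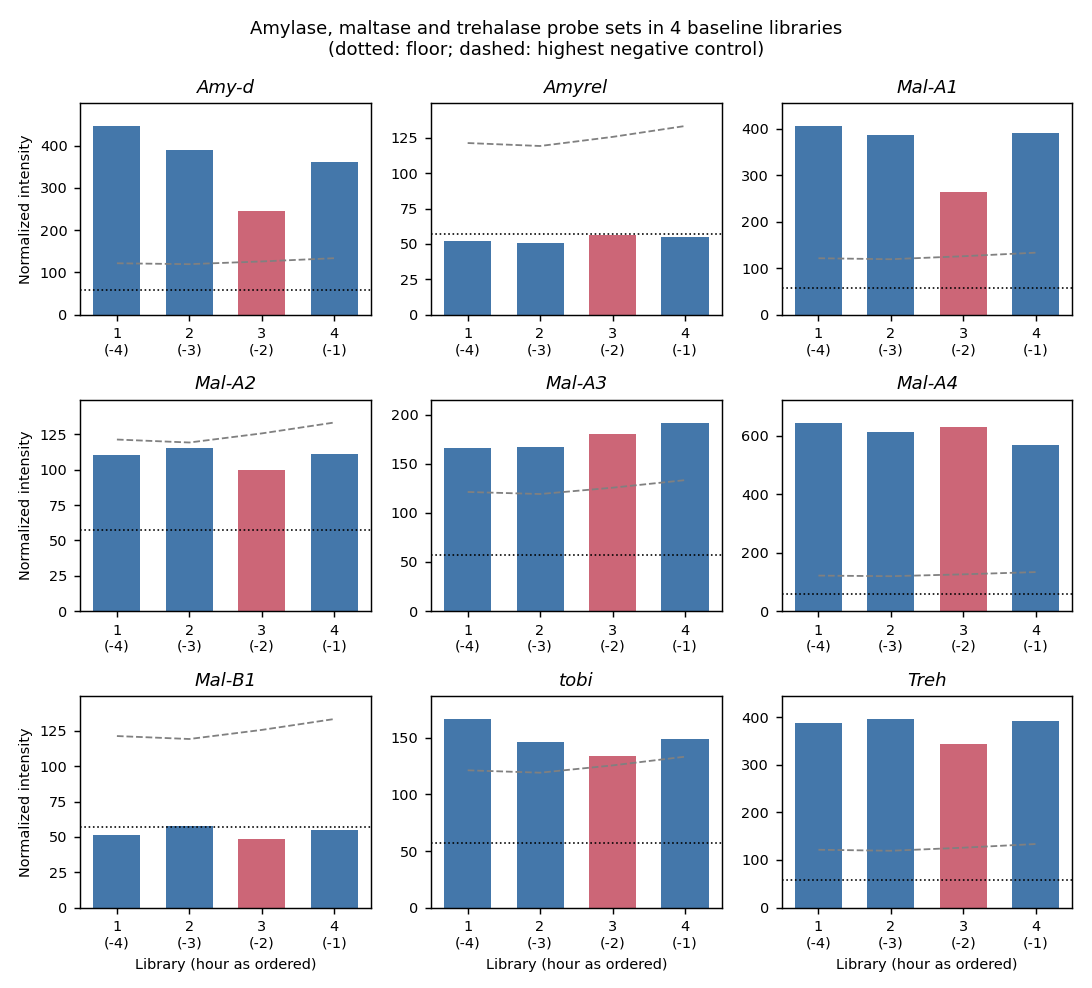
Normalized intensity (y axis) of the 9 member probe sets in libraries 1 to 4 (x axis, with the labelled hour in brackets), with library 3 in red; each bar is 1 array. The dotted line is the floor of 57.1 and the dashed line the highest of 23 negative controls in each library. Amy-d and Mal-A1 have their lowest bar in library 3, and Amyrel and Mal-B1 stay near the floor.

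The amylase genes came first in the order of digestion. Amy-d averaged 360.1 ± 85.2 (SD, n = 4), and its highest value was 1.83 times its lowest. The Amy-d and Amy-p genes are known to be nearly identical in their coding sequence, so RNA of Amy-p may contribute to the signal of the Amy-d probe set, and the data do not separate them. Amyrel, an amylase-related gene, had 51.9, 50.4, 56.4 and 55.0 in libraries 1 to 4. All of its values were under the floor of 57.1, the 20th percentile of all values, to which lower values were raised before logarithms were taken, so it was not tested.

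Among the maltase genes, Mal-A1 averaged 362 ± 66.2 (SD, n = 4). Mal-A4 was nearly level, with 645, 614, 629 and 568 in libraries 1 to 4 (mean 614 ± 33.4, SD, n = 4). Mal-A3 had 167, 167, 180.1 and 192. Its highest value was in library 4, and library 3 lay above libraries 1 and 2. Mal-A2 had 99.5 in library 3, against 110.3, 116 and 111 in libraries 1, 2 and 4. In every library it stayed under the highest negative control, a probe set for a sequence foreign to the fly, which reached 119 to 133. Mal-B1 had 51.4, 57.5, 48.2 and 55.1 in libraries 1 to 4, of which 1 value was above the floor. Mal-A1, Mal-A2 and Mal-A3 were first described as larval visceral protein genes, while these libraries are of adults.

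The gene tobi encodes an alpha-glucosidase whose name stands for target of brain insulin, and its expression is known to respond to dietary protein and sugar. It had 134 in library 3, against 167, 146 and 149 in libraries 1, 2 and 4, with a mean of 149 ± 13.5 (SD, n = 4). Library 3 was lowest and library 1 highest. Treh, the trehalase gene, had 343 in library 3, against 388, 396 and 391 in libraries 1, 2 and 4, with a mean of 379.6 ± 24.6 (SD, n = 4). Here too library 3 lay below the other libraries, which differed among themselves by little.

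Tests were run on the 8379 probe sets whose average log2 level lay above an intensity of 92.5, the 40th percentile of such averages. Of the 9 members, 7 passed, and Amyrel and Mal-B1 did not. The first question was whether any member varied more between libraries than probe sets of like intensity. By this limma-based variance test 0.274% of all tested probe sets passed at an adjusted p under 0.05, and 0 of the 7 members did, with 2 at an unadjusted p under 0.05. These were Amy-d, whose SD of log2 intensity was 4.26 times that expected at its intensity (adjusted p = 0.124), and Mal-A1, at 3.33 times (adjusted p = 0.341). The other 5 had ratios that did not reach an unadjusted p under 0.05.

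As a description, the coefficient of variation was 23.6% for Amy-d and 18.3% for Mal-A1, against a median of 5.24% and a 95th percentile of 12.1% over all tested probe sets. For tobi it was 9.07%, for Mal-A3 6.88%, for Treh 6.48%, for Mal-A2 6.27% and for Mal-A4 5.44%. Leaving out library 3, the value for Mal-A1 was 2.55% and that for Treh 0.976%, under the median of 4.79% over all tested probe sets in the same 3 libraries. Amy-d still had 10.9%, higher than 92.4% of tested probe sets, with library 1 above libraries 2 and 4.

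**Figure D2:**
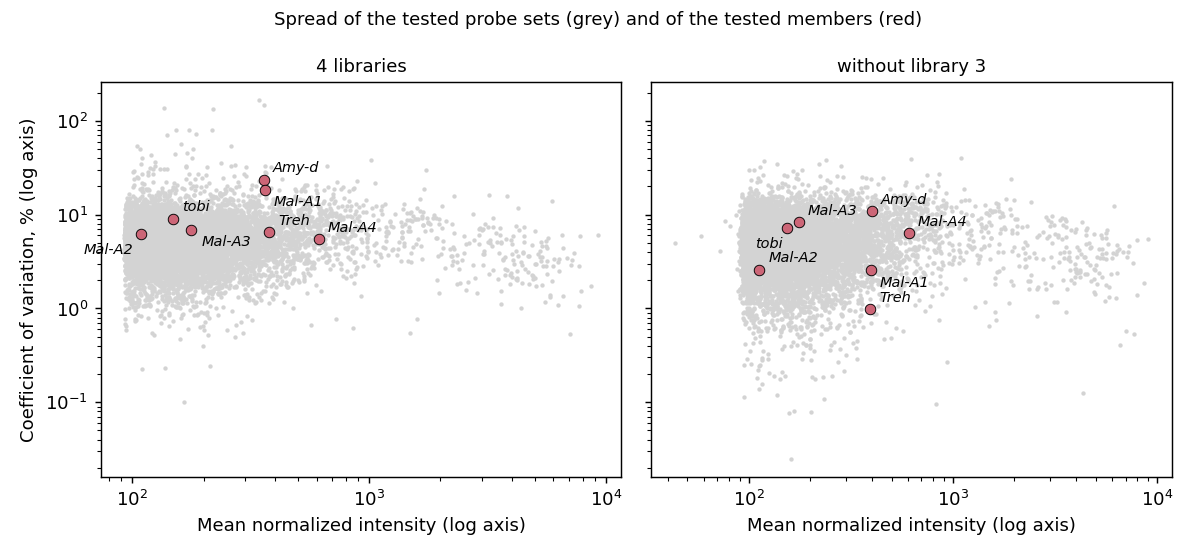
Coefficient of variation in percent (y axis, log scale) against mean normalized intensity (x axis, log scale) for the 8379 tested probe sets (grey) and the 7 tested members (red), over 4 libraries on the left and without library 3 on the right. Amy-d and Mal-A1 stand at 23.6% and 18.3% on the left, and at 10.9% and 2.55% on the right.

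Each library was next set against the mean of the other 3, in limma, over all tested probe sets. With 1 library on one side, it is assumed to vary like the others, so none of these differences is replicated. In library 3, Amy-d fell by 0.70 ± 0.12 on the log2 scale (SE, adjusted p = 0.0332) and Mal-A1 fell by 0.58 ± 0.09 (SE, adjusted p = 0.0218). They were 2 of the 7 tested members, while 0.143% of all tested probe sets were called lower in library 3, 12 in number. None of the 7 was called higher, against 0.561% of all. Ordered by size of the difference, Amy-d was among the 6 lowest and Mal-A1 among the 12 lowest of 8379 probe sets.

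The call for Amy-d ended with a filter at the 60th percentile (adjusted p = 0.0649) and with a prior variance that is not robust (adjusted p = 0.0653), and that for Mal-A1 ended without library 1 (adjusted p = 0.0826). Without any filter but with the floor kept, both ended, at adjusted p of 0.980 for Amy-d and 0.268 for Mal-A1.

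The other 5 tested members were not called in library 3. The log2 difference was -0.20 ± 0.10 for tobi, -0.19 ± 0.09 for Treh and -0.17 ± 0.08 for Mal-A2 (SE, limma adjusted p = 0.776, 0.776 and 0.783). For Mal-A3 it was 0.04 ± 0.10 and for Mal-A4 0.05 ± 0.12 (SE, limma adjusted p = 0.973 for each); for Mal-A4 it changed sign, to -0.0016, without library 4. These intervals do not show that the genes were unchanged. In all, 5 of the 7 tested members had their lowest deposited value in library 3, as did 28.6% of all tested probe sets, and the same 5 were below the mean of the other libraries, as were 54.3% of all. By Dixon's ratio, which sets the gap of an extreme value against the whole range, library 3 was set apart in Mal-A1 and Treh, 2 of the 7, and 5.16% of all tested probe sets had some library set apart. The median log2 difference was -0.19 over the 7 members and -0.01 over all tested probe sets.

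**Figure D3:**
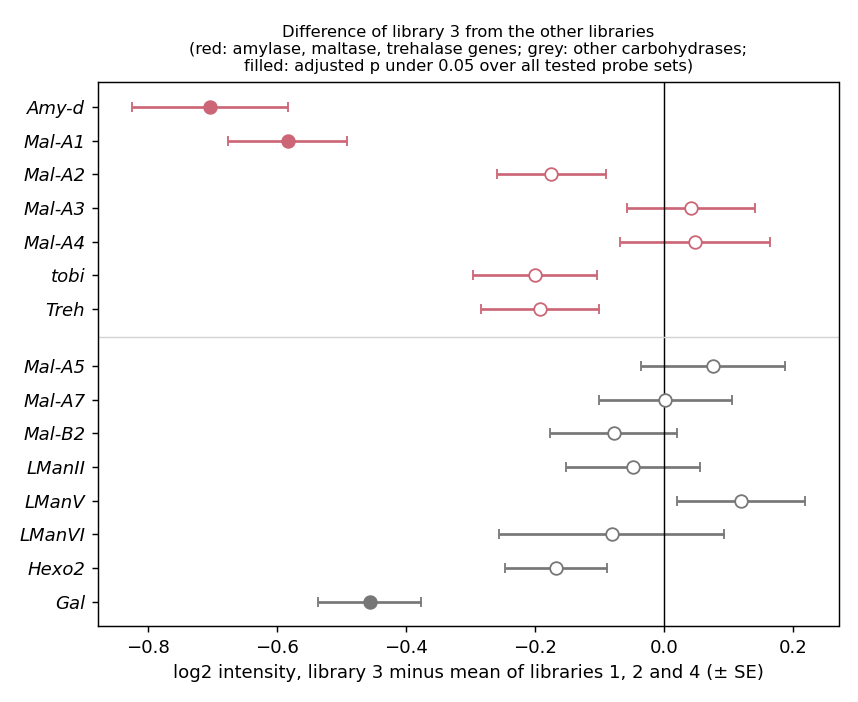
Log2 intensity of library 3 minus the mean of libraries 1, 2 and 4 (x axis), with its SE as bars, for the 7 tested amylase, maltase and trehalase genes (red) and 8 other carbohydrate-digesting enzyme genes (grey). Filled points passed at an adjusted p under 0.05 over all tested probe sets: Amy-d at -0.70, Mal-A1 at -0.58 and Gal at -0.46.

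Ratios within an array set the called members beside other members. Centred on its mean over the libraries, the log2 ratio of Mal-A1 to Mal-A4 was -0.47 in library 3, against 0.11, 0.12 and 0.24 in libraries 1, 2 and 4. The ratio of Amy-d to Mal-A4 was -0.56 in library 3, against 0.27, 0.14 and 0.15 in libraries 1, 2 and 4. In both ratios library 3 lay outside the range of the other libraries. The numerators were called low there and Mal-A4 had the highest difference of the tested members, so this follows largely from the choice of genes. Against Treh, the ratio in library 3 was -0.29 for Mal-A1 and -0.38 for Amy-d. That of Mal-A1 to Mal-A2 was -0.31. The ratio of Amy-d to Mal-A1 was -0.09 in library 3, against 0.16, 0.03 and -0.09 in libraries 1, 2 and 4, so these genes kept about the same proportion in libraries 3 and 4. With 1 library against 3, an exact permutation test cannot give a two-sided p under 0.25, so these ratios were not tested.

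No member was called in libraries 1, 2 or 4. In limma, 0 of the 7 members passed in library 1, with 1 at an unadjusted p under 0.05 (tobi, log2 difference 0.22 ± 0.10, SE, unadjusted p = 0.0414), and 0% of all tested probe sets passed there. In library 2 and in library 4, 0 members passed, with 0 at an unadjusted p under 0.05 in each. Of all tested probe sets, 0.0119% were higher and 0.0955% lower in library 2, and 0.0119% lower in library 4. The count for library 4, 1 probe set, became 503 without library 3, of which 395 were lower and none was a member.

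A trend over the labelled hour was tested because the labels give the libraries an order. That order was assigned for a change-point analysis, so a slope over it need not be a change over time. In limma, 0 members passed, and 0% of all tested probe sets passed in either direction; without library 3 the slope of 321 probe sets passed, 255 of them falling and none of them a member. At an unadjusted p under 0.05 there was 1 member, Mal-A3, with a slope of 0.07 ± 0.03 log2 units per labelled hour (SE, unadjusted p = 0.0333, adjusted p = 0.402). Amy-d had a slope of -0.16 ± 0.15 and Mal-A1 one of -0.07 ± 0.12 (SE, limma adjusted p = 0.756 and 0.864). Without library 4 Amy-d passed as falling, on 3 libraries of which library 3 is the last, in a fit where 22 of 8379 probe sets passed, 17 of them falling.

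Mal-A1 to Mal-A8 are neighbours, with no other coding gene between them in NCBI RefSeq's Release 6 plus ISO1 MT annotation, and all 8 had a probe set. Library 3 was low for Mal-A1 and Mal-A6, which are not adjacent. Of the genes between them, Mal-A2 stood at 88.6% of the mean of the other libraries and was not called, and Mal-A3, Mal-A4 and Mal-A5 stood at 103%, 103% and 105%. Mal-A6, outside the named members, had 62.2 in library 3, against 110.6, 105 and 90.9 in libraries 1, 2 and 4, or 60.8% of their mean. All its values were under the highest negative control of their library, so the size of its difference is uncertain. It missed the filter, to which its low value in library 3 contributed. When neither floor nor filter was applied, a setting added once the data had been seen, it fell by 0.71 ± 0.11 on the log2 scale (SE, limma adjusted p = 0.0106), in a setting where 0.136% of all probe sets were lower. Amy-d and Mal-A1 passed there as well (limma adjusted p = 0.0167 and 0.0106), while Amyrel (0.11 ± 0.11) and Mal-B1 (-0.18 ± 0.11) did not (SE, limma adjusted p = 0.893 and 0.772).

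In library 3 the remaining Mal-A genes gave log2 differences of 0.08 for Mal-A5 and 0.00 for Mal-A7, neither called (limma adjusted p = 0.959 for Mal-A5). Mal-A8 had 52.1 in library 3, against 57.6, 58.2 and 64.3 in libraries 1, 2 and 4, all close to the floor. The annotated extent of Mal-A1 overlaps that of Cyp4e1, a cytochrome P450 gene, which had 54.1 in library 3, against 57.7, 61.0 and 62.7 in libraries 1, 2 and 4. Treh overlaps Rbpn-5, which had 182 in library 3, against 199, 193 and 188 (log2 difference -0.08 ± 0.08, SE, limma adjusted p = 0.933). Among the other members, tobi overlaps rha, Amyrel overlaps gprs and Mal-B1 overlaps Pde1c. Cyp4e1 and rha stayed under the highest negative control of each library. The sources used here do not place the probes within or outside the shared stretches.

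**Figure D4:**
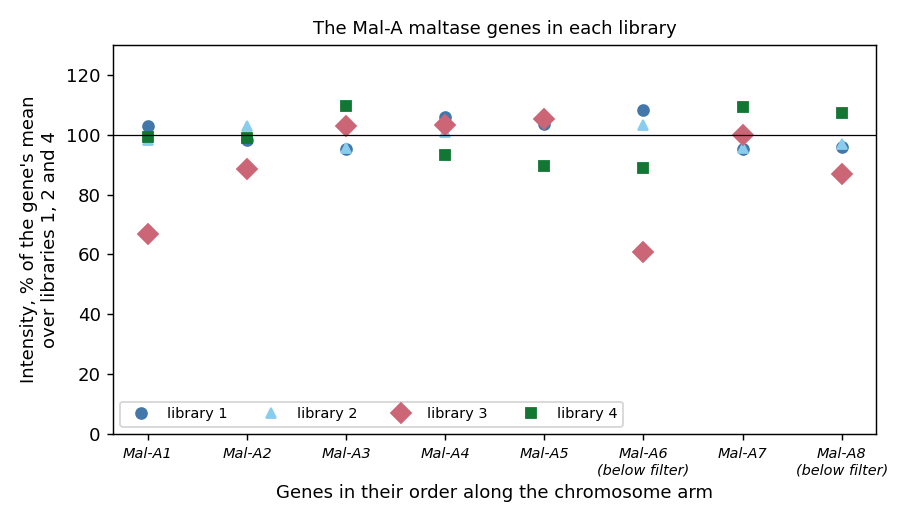
Intensity of the 8 Mal-A genes in each library as a percentage of the gene's mean over libraries 1, 2 and 4 (y axis), with the genes in their order along the chromosome arm (x axis) and 1 point per array. Library 3 (red diamonds) stands at 66.7% for Mal-A1 and 60.8% for Mal-A6, and between 86.8% and 105% for the other 6 genes.

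For other enzymes of carbohydrate digestion, the median coefficient of variation was 6.97% over the tested genes. It was 6.88% over the tested members and 5.24% over all tested probe sets. Of 18 listed genes 13 were measured and 8 tested, and 1 of the 8 was lower in library 3 and 0 higher. This was Gal, which encodes a beta-galactosidase, at 137 in library 3 against 194, 184 and 186 in libraries 1, 2 and 4. Its log2 difference was -0.46 ± 0.08 (SE, limma adjusted p = 0.0363). The call ended in 4 of 8 alternative settings and without library 1. Hexo2, a hexosaminidase gene and the least variable of the 8 by the ratio of highest to lowest value, had 161 in library 3, against 177, 185 and 179 (limma adjusted p = 0.776). The median log2 difference of the 8 genes in library 3 was -0.06.

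The genes whose profile over the 4 libraries came nearest to those of the called members are listed here. In those members library 3 deviated most from the mean, so genes chosen as nearest were low there by construction. Nearest to Amy-d, by root mean square difference of centred log2 values, were CG15818 (0.07), klar, which is needed for nuclear migration (0.08), and CG14499 (0.11). CG15818, with 121, 119, 68.3 and 99.8 in libraries 1 to 4, stayed under the highest negative control of each library. Nearest to Mal-A1 were Gal (0.06), the fatty acid synthase gene FASN1 (0.06) and Acbp5, an acyl-CoA-binding protein gene (0.07). Acbp5 was not called in library 3. Amy-d and Mal-A1 lay 0.10 apart. The closest pair among the tested members was Mal-A2 and Treh, at 0.02. With 4 points per profile, which share the libraries, these distances are a description.

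Genes that supply or handle sugar beyond the gut gave no call. For sugar transport and trehalose synthesis, 15 genes were measured and 12 tested, and 0 passed in limma in any of the 6 tests. Tps1, the trehalose-6-phosphate synthase gene whose pathway makes the substrate of trehalase, had 871.5 in library 3, against 1146, 1085 and 994 in libraries 1, 2 and 4 (log2 difference -0.30, limma adjusted p = 0.670; unadjusted p = 0.0280). Of that list, 3 genes had an unadjusted p under 0.05 in library 3, and the other two were higher there, CG6262 by 0.33 and the phosphoglucomutase-like gene Pgm2a by 0.24 on the log2 scale (limma adjusted p = 0.376 and 0.670). The sugar transporter gene sut2 was the least variable, with 165 in library 3 and 164 to 170.0 elsewhere. Of 2 measured glycogen genes, Gyg, which encodes glycogenin, had 170.4 in library 3, against 197, 204 and 200.1, and the branching enzyme gene AGBE had 173, against 189.8, 195 and 162 in libraries 1, 2 and 4; neither passed (limma adjusted p = 0.551 and 0.959).

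Of 13 measured regulators of digestive carbohydrases 10 were tested, and 0 passed in limma in any of the 6 tests. In library 3, 0 of them had an unadjusted p under 0.05. The gene sug, which encodes a sugar-responsive zinc finger factor, had 353 in library 3, against 384, 400.4 and 343 in libraries 1, 2 and 4. The activin-like ligand gene daw, known to link sugar sensing to repression of gut carbohydrases, had 164, against 186, 169.5 and 154. Med, the co-Smad gene, varied least, with 120.5 in library 3, against 126, 125 and 121.

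In measures of other tissues and of the hybridisation, library 3 also differed from libraries 1 and 2, and in some of these library 4 was close to it. All 21 measured male reproductive genes had their highest value there, as did 23% of all tested probe sets, and 9 of 11 tested were higher in limma. The 9 were the accessory gland genes Mst57Da and Acp95EF, the gene Anp, and the testis genes Mst84Da, Mst84Db, Mst84Dc, Mst84Dd, Mst87F and betaTub85D, with log2 differences from 0.72 for betaTub85D to 3.20 for Mst57Da. The ratio of highest to lowest value was widest for Acp95EF, with 416 in library 3 against 41.5, 42.9 and 45.8, and narrowest for Mst98Ca, with 533 against 479, 514 and 476. The summed intensity of the 21 genes was 5536 in library 3, against 2184, 2207 and 2288 in libraries 1, 2 and 4. Midgut protease genes, which share the midgut with the secreted carbohydrases, had a summed intensity of 27081 in library 3, against 30783, 31446 and 27872. Of 21 tested, 0 were lower and 1 was higher, Jon74E, with 250.1 in library 3 against 134, 137 and 153. The least variable was zetaTry, with 167 in library 3 against 158, 162 and 168. Of the 21, 11 were under the mean of the other libraries in library 3 and 10 were not, while 54.3% of all tested probe sets were under it. Those under it included alphaTry at 73.9% of that mean, yip7 at 80.5%, betaTry at 82.4% and Jon65Aiv at 83.3%. Fat body genes summed to 3780.1 in library 3, against 4624, 4618 and 4059. In library 3, 12 of 13 tested genes were under the mean of the other libraries, as were 54.3% of all tested probe sets. In library 4, 10 of the 13 were under the mean of the others. FASN1 alone was called in library 3, with 277 there against 415, 444 and 407 (log2 difference -0.61). On the brightest probe set of each gene, FASN1 was the most variable of the 13, with a ratio of highest to lowest value of 1.60. Fbp1 was the least, with 189 in library 3 against 211, 204 and 199. A dimmer probe set of the lipophorin gene apolpp had a wider ratio, 1.73, with 263 in library 3 against 454, 447 and 285. Its brighter probe set had 616 in library 3 against 936, 820 and 684. Bacterial hybridisation controls in library 3 were 1.59 times as bright as in library 1, against 0.927 times in library 2 and 1.29 times in library 4, and the log2 ratio of 3' to 5' control probe sets was 1.44, against 1.14, 1.05 and 1.40 in libraries 1, 2 and 4. Library 4 was close to library 3 in summed midgut protease intensity and in the 3' to 5' ratio. Its fat body sum, 4059, lay nearer to the 3780.1 of library 3 than to the sums of libraries 1 and 2. In male reproductive genes library 4 was not close to library 3, and in hybridisation controls it lay between library 3 and libraries 1 and 2. Its male reproductive genes summed to 2288, against 5536 in library 3. Its hybridisation controls were 1.29 times as bright as in library 1, against 1.59 times in library 3. Amy-d and Mal-A1 stood at 361 and 391 in library 4. Each library is 1 array. The part of tissue content, hybridisation and the 3' to 5' ratio in the values of Amy-d and Mal-A1 was not tested.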

How the data were processed

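The deposited values are intensities, which the authors normalized with DNA-Chip Analyzer (dChip) through an invariant set of probes, per the labels. The sources used here name neither its version nor its background model. Such a normalization can leave intensity-dependent differences, and the number of arrays, 4, limits the precision. The table held 14010 probe sets, 44 of them controls, which were kept out of the tests. Of the rest, 12443 matched 1 gene in the platform annotation, 327 several and 1196 none, and 12394 were matched to RefSeq by gene identifier.

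A floor of 57.1 was set, values were put on the log2 scale, and the filter described above was applied. Variance (squeezeVar, F test), each library against the other 3, and the trend with labelled hour were tested with a robust, trended prior in R 4.3.3 with limma 3.58.1, statmod 1.5.0 and Benjamini-Hochberg adjustment over all tested probe sets. The functions were tested on simulated data.

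The members and gene lists were chosen with earlier results of these data known. Named were all members, in each list the genes past a test and the tested genes with the largest and smallest ratio of highest to lowest value, and the 3 nearest profiles of each called member. Tps1, CG6262, Pgm2a, sug, daw, Mal-A5 to Mal-A8, Cyp4e1, Rbpn-5, rha, gprs and Pde1c lie outside that rule and were chosen after their values were seen.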

Additional observations from a re-analysis of the deposited data

Results flagged for a closer look

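In 2 of the 9 member probe sets, library 3 stood apart from the other 3 libraries by its gap to the nearest of them relative to the whole range (Dixon's ratio, at its 95% critical value for 4 samples). Mal-A1 had a ratio of 0.866, with 264 in library 3 against 387 to 406 in the others. Treh had a ratio of 0.856, with 343 in library 3 against 388 to 396. Amy-d had a ratio of 0.58 and was not set apart this way, since its other libraries were spread from 361 to 446. Chance sets apart about 1 in 20 groups, and 5.16% of all tested probe sets were set apart.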

How the results depend on the processing

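The direction of the Amy-d and Mal-A1 differences in library 3 was negative in all 8 other settings of floor, filter, scaling and prior, with log2 values from -0.71 to -0.59 and from -0.59 to -0.50. Amy-d passed in 5 of the 8 and Mal-A1 in 7, with adjusted p of 0.0140 to 0.980 and 0.0123 to 0.268. The 2 members called in library 3 became 1 with a filter at the 60th percentile, 1 with a prior that is not robust and 0 with no filter, where 2392 of 13966 probe sets have every value at the floor and enter the prior. Leaving out 1 replicate at a time gave 1 to 2 members in library 3 and 0 to 1 for the slope over the labelled hour (Amy-d, without library 4). With no filter, 1 member, Mal-B1, passed in library 2, where it is the 1 value above the floor; 30 of 13966 probe sets passed there, 0 of them lower. All other counts of members, for variance and for libraries 1 and 4, were 0 throughout. The difference of Mal-A4 in library 3 ranged from -0.0016 (without library 4) to 0.091 (without library 1) when 1 replicate was left out. Probe sets called lower in library 3 numbered 12, against 3 with a filter at the 60th percentile, 1 with no filter, 8 with a prior that is not robust, 19 without floor and filter, 21 without library 2 and 336 without library 4; variable probe sets numbered 23, against 0 without library 3, 57, 40 and 45 without libraries 1, 2 and 4, 12 with the stricter filter, 10 with a prior that is not robust, 40 after quantile normalization and 60 without floor and filter. For the slope, 0 probe sets became 321 without library 3, 22 without library 4 and 11 for the last 2 labelled hours against the first 2. Counts became 52 (from 0) in library 1, 30 (from 9) in library 2 and 106 (from 1) in library 4 with no filter, and 18 in library 2 and 503 in library 4 without library 3. Where no construction is named, the cause was not tested. No paired analysis was possible because there is 1 group. Values under 133, the brightest negative control, carry little information on abundance, which limits Amyrel, Mal-A2, Mal-A6 and Mal-B1, among others.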

Other observations

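A few listed genes of sugar handling and of carbohydrase regulation differed more between libraries 1 and 2 and libraries 3 and 4 than between library 3 and the rest. Smox, which encodes the Smad protein of the activin pathway, had 144, 124, 86.9 and 82.8 in libraries 1 to 4, and it was the most variable of the 10 tested regulators (slope -0.29 log2 units per labelled hour, limma adjusted p = 0.298). UGP, which makes UDP-glucose for glycogen and trehalose, had 660.1, 714, 514 and 512, the widest ratio among the 12 tested genes of sugar transport and trehalose synthesis at 1.39 (slope -0.16, limma adjusted p = 0.358). Neither passed a test over all probe sets. AkhR, the adipokinetic hormone receptor gene, chosen after its values were seen, had 73.8, 62.6, 49.3 and 42.8, the last 2 under the floor. In every library AkhR was under the highest negative control, as was Smox in libraries 3 and 4, so these values carry little information on abundance.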
